A study of Mus musculus with 22 samples.

Results

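The naive pluripotency transcription factors examined here are 9 genes, Nanog, Klf2, Klf4, Klf5, Tfcp2l1, Esrrb, Tbx3, Prdm14 and Zfp42, taken by name from the 55487 genes listed in each of the 2 tables of the study. They were chosen as a class of regulators, not by a threshold on their values, but with earlier results of these data known. Counts of factors called are therefore not blind to the data. All 9 had enough reads to be tested in both tables, and each is described gene by gene across every construct.

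Naive pluripotency is the state of the pre-implantation epiblast, and mouse embryonic stem cells are kept in it by LIF together with inhibitors of MEK and GSK3. LIF acts through STAT3, which drives Klf4 and Tfcp2l1. Inhibition of GSK3 relieves the repression of Esrrb by TCF7L1, and Nanog and the remaining factors are tied to the core factors OCT4 (Pou5f1) and SOX2. The protein DUX carries a pair of homeodomains and switches on genes of the 2-cell embryo.

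RNA was measured by poly(A) sequencing in a mouse embryonic stem cell line lacking endogenous Dux (Dux-/-). Every group, the controls included, carried this knockout, grew in 2iLIF, was left for 24 hours after plating, and then received 0.25 ug/mL doxycycline for 12 hours. All constructs carried the red fluorescent protein mCherry. The control group, mCherry, expressed the tag without Dux, and FL stands for Dux at its full length. The derivatives are named in the labels C3+14, C1C3a, C1C3b, C1C3c, C1+14, C12345delt14, deltC12345+14 and deltC12345delt14. The labels do not spell out the numbered segments, so the names are used as given, and C3delt14 was not analysed here. Each construct had 2 replicates, and nothing in the labels says that these came from separate cultures. P-values therefore measure the spread between these samples, which may be technical.

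The values came in 2 tables that were scaled separately. The chimera table held mCherry, FL, C1+14, C3+14 and the 3 C1C3 constructs in 14 libraries. The deletion table held FL, C12345delt14, deltC12345+14 and deltC12345delt14 in 8 libraries, with the same FL libraries and no mCherry. Library totals ran from 21059953 to 40448890 reads, and the lowest count of any of the 9 factors in a library was 54 reads in the former and 123 in the latter. Values are normalised reads, that is, reads divided by 1 size factor per library, and in bulk RNA fewer cells expressing a gene and less RNA per cell cannot be told apart. Duxf3, the annotation's name for Dux, was listed at 0 in every library, FL included, so it checks neither the knockout nor the transgene. The 6 stem cell markers fixed for this cell type (Pou5f1, Sox2, Sall4, Lin28a, Dppa5a and Utf1) were detected in every group.

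The libraries were of 2 kinds, set apart by the share of reads in 1643 genes that have many near-identical copies. That share was between 1.68% and 2.6% in 16 columns (kind A) and between 0.299% and 0.43% in the other 6 (kind B). Both libraries of mCherry and both of C3+14 were kind B, whereas FL, C1C3a, C1C3b, C1C3c, C1+14 and C12345delt14 were kind A throughout. Kind and construct can therefore not be told apart when FL, a C1C3 construct or C1+14 is set against mCherry or against C3+14. Comparisons within 1 kind are C3+14 with mCherry, and FL, the C1C3 constructs and C1+14 with each other. The constructs deltC12345+14 and deltC12345delt14 each had 1 library of either kind, and there the 9 factors differed between kinds by -0.23 to 0.60 on the log2 scale over 18 values, 12 of them above 0.

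The 9 genes (GENCODE M21 on GRCm38) are annotated as protein-coding. Nanog is at chr6:122707489-122714633, Klf2 at chr8:72319033-72321656, Klf4 at chr4:55527143-55532466 and Klf5 at chr14:99298691-99315036. Tfcp2l1 spans chr1:118627945-118685168, Prdm14 chr1:13113457-13127163, Esrrb chr12:86361117-86521628, Tbx3 chr5:119670669-119684724 and Zfp42 chr8:43295063-43306980. Zfp42 shares 4 of 40 sampled stretches of 50 bases with a processed pseudogene, Zfp42-ps1, so its reads may be divided between the 2 and its values are uncertain to that extent.

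Promoter sequence is shown for 4 members because they span the range of motif matches. RefSeq promoters on GRCm38.p6 were matched for 6 of the 9 genes (Nanog, Klf2, Klf4, Tfcp2l1, Esrrb and Zfp42), and Klf5, Tbx3 and Prdm14 were not matched. Each line gives the 250 bases before the annotated start, 5′ to 3′ on the gene's strand, and capitals mark matches to a motif on either strand. The motifs searched were TTTGCAT (POU), CATTGT (SOX), GGGNGTGG (KLF), AAGGTCA (ESRRB), TTCNNNGAA (STAT) and TGATTNAAT (the first 9 letters of a DUX site).
Nanog (chr6:122707239-122707488, plus strand): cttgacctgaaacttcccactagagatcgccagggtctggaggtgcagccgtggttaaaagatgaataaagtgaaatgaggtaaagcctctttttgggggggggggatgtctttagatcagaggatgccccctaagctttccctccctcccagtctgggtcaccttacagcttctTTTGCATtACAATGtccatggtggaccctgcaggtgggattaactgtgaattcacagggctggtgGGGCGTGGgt
Zfp42 (chr8:43307010-43307259, minus strand): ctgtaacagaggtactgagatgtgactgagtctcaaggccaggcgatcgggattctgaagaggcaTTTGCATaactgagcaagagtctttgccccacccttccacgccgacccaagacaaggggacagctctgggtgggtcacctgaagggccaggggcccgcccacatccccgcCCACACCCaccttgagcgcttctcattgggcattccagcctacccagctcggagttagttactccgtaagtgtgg
Tfcp2l1 (chr1:118627695-118627944, plus strand): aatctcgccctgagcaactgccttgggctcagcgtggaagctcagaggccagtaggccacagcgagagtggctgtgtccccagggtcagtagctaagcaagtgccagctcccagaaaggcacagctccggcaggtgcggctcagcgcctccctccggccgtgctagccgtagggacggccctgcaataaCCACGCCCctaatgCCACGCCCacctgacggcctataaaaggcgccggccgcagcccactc
Klf4 (chr4:55532476-55532725, minus strand): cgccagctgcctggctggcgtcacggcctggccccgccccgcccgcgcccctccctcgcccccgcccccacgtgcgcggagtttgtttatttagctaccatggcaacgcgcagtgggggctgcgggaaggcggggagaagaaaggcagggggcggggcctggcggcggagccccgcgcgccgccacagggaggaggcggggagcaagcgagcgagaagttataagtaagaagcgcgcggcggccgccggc

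In Nanog the POU match lay 75 to 69 bases before the start and the SOX match, on the opposite strand, 67 to 62 bases before it, without overlap, followed by a KLF match 10 to 3 bases before it. Tfcp2l1 held 2 KLF matches, Zfp42 a POU and a KLF match, and Klf4 held none of the 6 motifs. No match overlapped another. Among all 32851 RefSeq promoters of this length, 4.12% held the POU motif, 10.7% the SOX motif, 15.9% the KLF motif, 4.08% the ESRRB motif, 7.02% the STAT motif and 0.658% the DUX letters. The STAT motif was found in 1 Esrrb promoter, and the ESRRB and DUX letters in none of the 8 promoters of these genes. A match is a description of letters, not a binding site or a cause of any change.

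With mCherry alone, all 9 factors were expressed. Per kilobase of exon, the only scale on which levels of different genes are set side by side here, Nanog was highest with a mean of 7163 normalised reads per kilobase, followed by Zfp42 with 5978, Esrrb with 2261, Klf2 with 2228, Tfcp2l1 with 2019, Klf5 with 1127, Klf4 with 1035, Prdm14 with 873 and Tbx3 with 652. Under FL, Nanog (2596) and Zfp42 (1407) were still the highest by this measure, and Tbx3 (50.7) the lowest.

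Every one of the 9 factors was lower with FL than with mCherry, from -3.85 for Tbx3 to -1.09 for Klf5 on the log2 scale. Kind of library and construct cannot be told apart there. Against C1+14, within kind A, FL had 5 of the 9 called lower by limma with the deposited scaling (18.4% of all genes). Which factors were called differed among the derivatives, a pattern given here by counts and not tested as a difference. Klf4 and Klf5 were lower than mCherry past the test under FL only among the 6 constructs, although Klf4 was also at about 51% to 55% of mCherry under C1+14 and C1C3c. Prdm14 and Klf2 were lower under all 6 constructs, and C1C3b gave the lowest means of Nanog, Klf2, Esrrb, Prdm14 and Zfp42. The Klf2 call with C1C3c was lost when only that group and mCherry were fitted. Its call with C1+14 was lost when a library of C1+14 or mCherry was left out. In the deletion table all 9 factors had higher means than FL in both constructs without C12345, and 8 of them were called higher, against 18.4% of all genes in deltC12345+14 and 18.8% in deltC12345delt14.

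A gene was called when limma's adjusted p was under 0.05 and the log2 fold change at least 1 in size. Of all 21584 genes tested, 19.6% were called lower and 24.5% higher in FL than in mCherry, and of the 9 factors 9 were called lower. Against mCherry 7 were called lower in C3+14 (17.7% of all genes, with 29.6% higher), 4 in C1+14 (5.95%, with 12.4% higher), 6 in C1C3c (10.5%), 7 in C1C3b (17.1%) and 4 in C1C3a (19.0%). By limma 0 of the 9 were called higher than mCherry under any construct, and edgeR and DESeq2 also called 0. At an unadjusted p under 0.05 there was 1 higher value each in C3+14 and C1C3b. These 6 comparisons share the mCherry libraries. The scaling sets where no change lies: equal library totals in place of the deposited scaling moved the median of all genes in FL against mCherry by -0.95 and quantile normalization by -0.36, and the genes called lower went from 4241 to 9229 and 5589. With equal totals C1C3a had 7 factors lower than mCherry, and without the second C1C3c library C1C3c had 2.

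**Figure D1:**
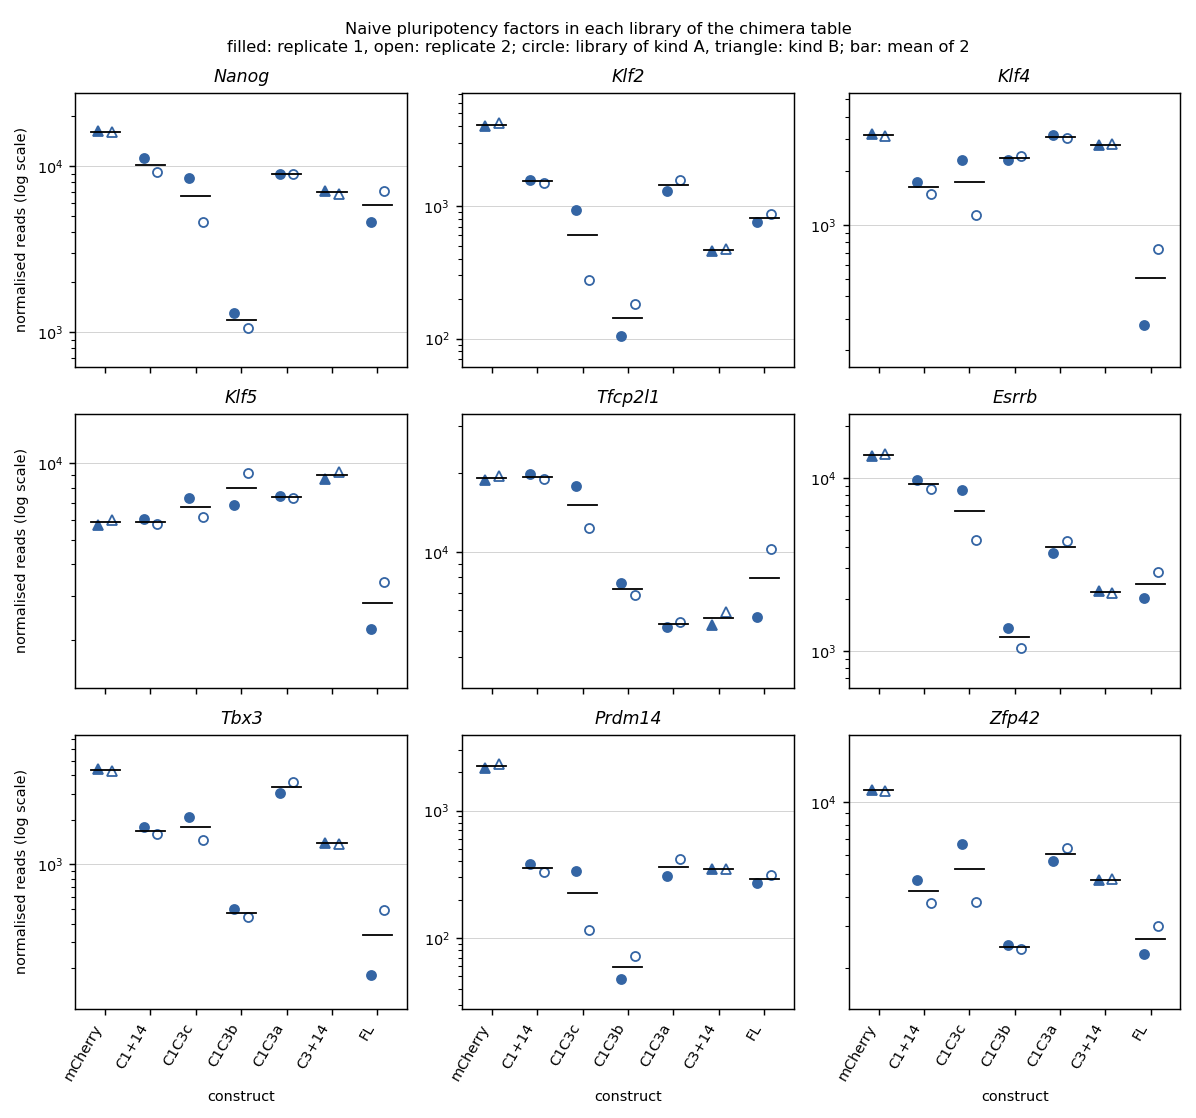
Normalised reads (log scale) of the 9 factors in each of the 14 libraries of the chimera table, by construct. Filled symbols are replicate 1, open symbols replicate 2, circles kind A, triangles kind B, and bars the mean of 2; mCherry is the highest group for 7 genes, and FL or C1C3b the lowest for 8.

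**Figure D2:**
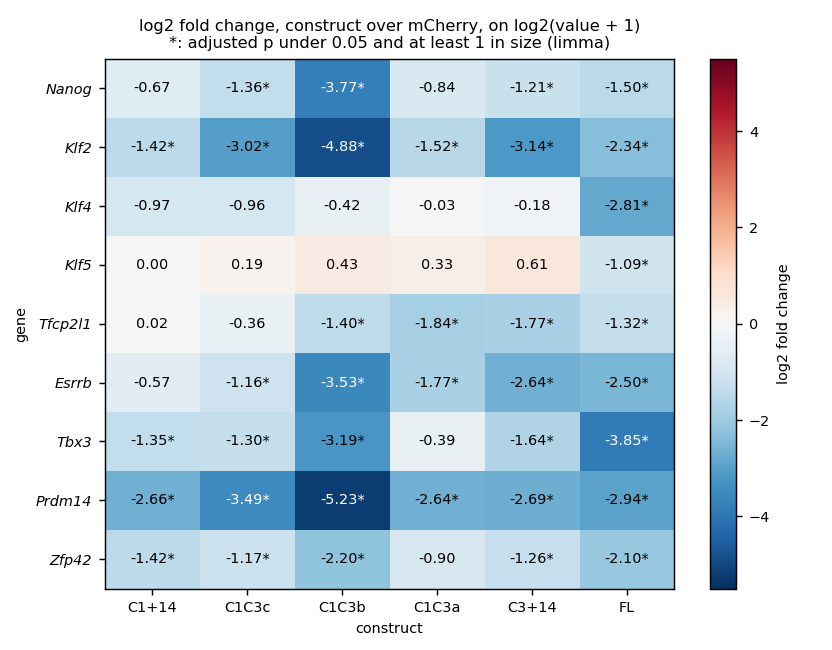
Log2 fold change of each factor (rows) in each construct (columns) over mCherry, on the log2(value + 1) scale, with an asterisk where limma called it. Klf4 and Klf5 carry an asterisk under FL only, and Prdm14 and Klf2 under all 6 constructs.

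Klf4, a Krüppel-like factor downstream of STAT3, stood at 3203 and 3108 normalised reads with mCherry and at 276 and 736 with FL. It was at 2771 and 2813 with C3+14, 3168 and 3028 with C1C3a, 2285 and 2425 with C1C3b, 2308 and 1140 with C1C3c, and 1741 and 1490 with C1+14. Both FL libraries were below every other library, and the C1C3a libraries overlapped those of mCherry. FL was 6.24-fold below mCherry (log2 -2.81 ± 0.36 SE, adjusted p = 1.8e-05, limma). The 95% interval of C1C3a against mCherry ran from -0.80 to 0.75, and that of C3+14 from -0.95 to 0.60. C1+14 (-0.97, adjusted p = 0.0551) and C1C3c (-0.96, adjusted p = 0.0436) were not called against mCherry, and without the first C1C3c library the latter was called at -1.47.

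Klf5, a related factor of the inner cell mass and trophectoderm, had 5726 and 5994 normalised reads with mCherry and 2209 and 3413 with FL. Values were 8704 and 9234 with C3+14, 7466 and 7279 with C1C3a, 6822 and 9156 with C1C3b, 7297 and 6114 with C1C3c, and 6022 and 5737 with C1+14. FL was the one construct with both libraries below mCherry (log2 -1.09 ± 0.18 SE, adjusted p = 0.000171), and without the first FL library that fold was -0.78 and not called. Both C3+14 libraries lay above mCherry at 153% of its mean (log2 0.61, adjusted p = 0.00954, below the size needed for a call), but equal library totals turned this difference to -0.17. C1C3a against mCherry was 0.33 and likewise turned to -0.27 with quantile normalization and -0.58 with equal totals.

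Tfcp2l1, a CP2-family factor that STAT3 induces, had 18723 and 19386 normalised reads with mCherry and 19721 and 18999 with C1+14. It was at 17852 and 12352 with C1C3c, 5669 and 10234 with FL, 7608 and 6881 with C1C3b, 5299 and 5908 with C3+14, and 5178 and 5432 with C1C3a. The libraries of C1+14 and mCherry overlapped, with a fold of 0.02 and a 95% interval from -0.45 to 0.50. C1C3a fell by 1.84 on the log2 scale (adjusted p = 9.03e-06), C3+14 by 1.77 (adjusted p = 1.35e-05), C1C3b by 1.40 (adjusted p = 0.000119) and FL by 1.32 (adjusted p = 0.000175). Without the first FL library the FL difference was -0.90 and not called. C1C3c differed from mCherry by -0.36 (adjusted p = 0.206).

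Esrrb encodes an orphan nuclear receptor that sustains self-renewal when GSK3 is inhibited. With mCherry it had 13469 and 13881 normalised reads, with C1+14 9776 and 8661, with C1C3c 8557 and 4388, with C1C3a 3710 and 4315, with FL 2032 and 2871, with C3+14 2232 and 2153, and with C1C3b 1355 and 1039. Every construct's libraries lay below both mCherry libraries, and only FL and C3+14 of neighbouring groups overlapped. Against mCherry it fell by 3.53 with C1C3b (adjusted p = 1.06e-07), by 2.64 with C3+14 (adjusted p = 1.06e-06), by 2.50 with FL (adjusted p = 1.89e-06), by 1.77 with C1C3a (adjusted p = 3.86e-05) and by 1.16 with C1C3c (adjusted p = 0.00213). The C1C3c value was -0.68 without the second C1C3c library and -0.97 with equal totals, not called in either, and C1+14 (-0.57, adjusted p = 0.0996) was not called.

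Klf2, the Krüppel-like factor that MEK inhibition stabilises, had 4015 and 4214 normalised reads with mCherry. It had 1572 and 1501 with C1+14, 1308 and 1563 with C1C3a, 763 and 864 with FL, 927 and 275 with C1C3c, 456 and 478 with C3+14, and 104 and 183 with C1C3b. All 12 other libraries were below both mCherry libraries, and both C1C3b libraries were below all others. The fold against mCherry was 28.6 for C1C3b (log2 -4.88 ± 0.40 SE, adjusted p = 3.94e-07) and 8.81 for C3+14 (log2 -3.14, adjusted p = 1.61e-05). C1C3c was at -3.02 (adjusted p = 6.11e-05), FL at -2.34 (adjusted p = 0.000212), C1C3a at -1.52 (adjusted p = 0.00466) and C1+14 at -1.42 (adjusted p = 0.016). The C1C3c libraries were 3.37-fold apart, and the C1C3c call was lost when only C1C3c and mCherry were fitted (limma, adjusted p = 0.0514). The C1+14 call was lost when any 1 of its own or the mCherry libraries was left out, at folds from -1.46 to -1.39.

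Nanog, the homeodomain factor that gates exit from the naive state, had 16214 and 15907 normalised reads with mCherry and 11149 and 9195 with C1+14. It had 8928 and 8971 with C1C3a, 7097 and 6799 with C3+14, 8499 and 4602 with C1C3c, 4590 and 7052 with FL, and 1308 and 1051 with C1C3b. C1C3b stood apart at 7.35% of the mCherry mean, a 13.6-fold difference (log2 -3.77 ± 0.24 SE, adjusted p = 4.74e-08). FL fell by 1.50 (adjusted p = 0.000147), C1C3c by 1.36 (adjusted p = 0.00061) and C3+14 by 1.21 (adjusted p = 0.000752). C1C3c without its second library was at -0.92 and not called. C1C3a (-0.84, adjusted p = 0.00855) and C1+14 (-0.67, adjusted p = 0.0535) did not reach the size for a call, although C1C3a did so with either other scaling, at -1.76 with both. The pseudogene Nanog-ps1, which shares 1 of 40 stretches with Nanog, had at most 93 reads in any library.

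Tbx3, a T-box factor that links LIF signalling to self-renewal, had 4388 and 4247 normalised reads with mCherry and 181 and 490 with FL. C1C3a had 3025 and 3575, C1C3c 2097 and 1456, C1+14 1786 and 1597, C3+14 1401 and 1373, and C1C3b 503 and 446. The FL and C1C3b libraries overlapped and were below all others. FL was 12.9-fold below mCherry (log2 -3.85 ± 0.32 SE, adjusted p = 3.57e-07), the largest of the 9 factors under FL, and C1C3b 9.11-fold (log2 -3.19, adjusted p = 2.69e-06). C3+14 was at -1.64 (adjusted p = 0.000627), C1+14 at -1.35 (adjusted p = 0.00666) and C1C3c at -1.30 (adjusted p = 0.00518), the last not called without the second C1C3c library (-1.04, adjusted p = 0.062). C1C3a was at -0.39 (adjusted p = 0.305) but at -1.31 and called with equal totals.

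Prdm14, a PR-domain repressor of FGF signalling and of DNA methyltransferases, had 2172 and 2306 normalised reads with mCherry. Normalised values were 306 and 419 with C1C3a, 382 and 329 with C1+14, 347 and 345 with C3+14, 273 and 311 with FL, 337 and 116 with C1C3c, and 47.4 and 72.3 with C1C3b. The first 4 of these groups lay between 273 and 419 and did not differ from each other past the test, with FL at 13.0% and C1+14 at 15.9% of the mCherry mean. Against mCherry Prdm14 fell by 2.66 with C1+14 (adjusted p = 0.000193), 2.64 with C1C3a (adjusted p = 3.53e-05), 2.69 with C3+14 (adjusted p = 3.04e-05), 2.94 with FL (adjusted p = 1.49e-05), 3.49 with C1C3c (adjusted p = 9.83e-06) and 5.23 with C1C3b (adjusted p = 1e-07). C1C3b was 37.4-fold below mCherry, the widest difference of any factor.

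Zfp42, which encodes REX1, a zinc finger protein used as the reporter of the naive state, had 11316 and 11174 normalised reads with mCherry. C1C3a had 5670 and 6395, C1C3c 6642 and 3780, C3+14 4685 and 4736, C1+14 4688 and 3751, FL 2288 and 3005, and C1C3b 2493 and 2397. The libraries of FL and C1C3b overlapped, those of C1C3c, C3+14 and C1+14 did so in part, and those of C1C3a lay within the range of C1C3c. It fell against mCherry by 2.20 with C1C3b (adjusted p = 1.65e-06), 2.10 with FL (adjusted p = 2.03e-06), 1.42 with C1+14 (adjusted p = 0.000316), 1.26 with C3+14 (adjusted p = 0.000179) and 1.17 with C1C3c (adjusted p = 0.000651, but -0.76 without the second C1C3c library and -0.97 with equal totals, not called in either). C1C3a was at -0.90 (adjusted p = 0.00222) and was called at -1.62 with quantile normalization and -1.82 with equal totals. Zfp42-ps1, with 1258 and 1295 normalised reads with mCherry and 277 and 281 with FL, was also lower with FL.

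In FL, C1C3c and C1+14, and in C12345delt14 of the deletion table, the same replicate was the lower for every factor. In C1+14 it was the second library and in C12345delt14 the first. The first FL library was below the second for all 9 factors, by the most for Tbx3 (181 against 490) and Klf4 (276 against 736). The second C1C3c library was below the first for all 9, by the most for Klf2 (927 against 275) and Prdm14 (337 against 116). The sum of 6 markers of 2-cell-like cells (Zscan4c, Zscan4d, Zfp352, Tcstv1, Tcstv3 and Usp17lc) was 1355140 and 725112 normalised reads in the FL libraries. It was 724971 and 792252 with C3+14, 323957 and 476214 with C1C3a, 18930 and 13384 with C1C3b, 897 and 823 with C1C3c, 11.0 and 4.96 with C1+14, and 0.660 and 0.858 with mCherry, where 5 of the 6 were at 0 in both libraries. C1C3b, with the lowest Nanog, Klf2, Esrrb and Prdm14, was far below FL, C3+14 and C1C3a in these markers. Prdm14 was as low with C1+14 as with C3+14, which differ in kind of library. Mean Tfcp2l1 was 5305 to 7952 normalised reads with FL, C3+14, C1C3a and C1C3b. With C1C3c, C1+14 and mCherry its mean was 15102 to 19360. The part of 2-cell-like cells in the levels of the 9 factors was not tested. The 6 primitive endoderm markers summed to 68.6 to 78.9 normalised reads with mCherry, 92.8 to 121 with FL, 186 to 215 with C1+14, 245 to 256 with C1C3c and 364 to 648 with C3+14, C1C3a and C1C3b, with Sox7 at 0 in FL. Fibroblast markers summed to 107 to 180 in all groups except C1+14 (179 and 361). Neural and mesoderm markers summed to 3188 and 3461 with mCherry, 3549 and 2077 with FL and 747 to 1827 in the other groups, and trophectoderm markers to 397 to 1044 over all groups. The part of any of these in the levels of the 9 factors was not tested.

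Setting the derivatives against FL asks which factors were higher with a derivative than with Dux at its full length. C3+14 also differs from FL in kind of library, so kind and construct cannot be told apart there. Klf4 was higher than FL with every derivative of the chimera table and Klf5 likewise, whereas limma with the deposited scaling called Nanog, Prdm14 and Klf2 higher with none of them. For C1+14 against FL, edgeR called Nanog (1.03) and Klf2 (1.15) higher, and equal totals called all 3, as given with the comparison of FL and C1+14. Klf4 rose over FL by 2.78 with C1C3a (adjusted p = 0.000137), 2.63 with C3+14 (adjusted p = 9.34e-05), 2.38 with C1C3b (adjusted p = 8.35e-05), 1.85 with C1C3c (adjusted p = 0.000621) and 1.84 with C1+14 (adjusted p = 0.000714). When only FL and the derivative were fitted by limma, 3 of these calls were lost. They were those with C1C3a (adjusted p = 0.0559), C1C3c (adjusted p = 0.05004) and C1+14 (adjusted p = 0.0503). Klf5 rose over FL by between 1.10 with C1+14 and 1.71 with C3+14. Without the first FL library the Klf5 differences were 0.97 with C1C3c and 0.78 with C1+14, and not called. Tbx3 rose by 3.46 with C1C3a (adjusted p = 1.18e-05), 2.55 with C1C3c, 2.50 with C1+14 and 2.21 with C3+14, and stood at 0.66 with C1C3b (adjusted p = 0.0897), which was 1.60 with equal totals and 1.38 without the second FL library, called in both.

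C3+14 had 3 factors called higher than FL (Klf4, Tbx3 and Klf5, against 16.8% of all genes), C1C3a had 4 with Zfp42 added (11.0%), C1C3c 4 with Esrrb added (21.2%), and C1+14 5 with Esrrb and Tfcp2l1 added (18.4%). C1C3b had 2 higher (Klf4 and Klf5, against 23.3%) and 4 lower than FL (Nanog, Klf2, Prdm14 and Esrrb, against 19.7%). The count higher with C1C3b is near the share of all genes, so it is no result about the factors. These comparisons share the FL libraries, and for C3+14 against FL kind and construct cannot be told apart. With C1C3b Nanog was 4.93-fold below FL (log2 -2.28, adjusted p = 4.84e-06), Klf2 5.66-fold (log2 -2.55, adjusted p = 0.000116) and Prdm14 4.88-fold (log2 -2.29, adjusted p = 0.000138). Esrrb, at -1.02 (adjusted p = 0.00304), was -0.84 with quantile normalization, -0.09 with equal totals, -0.92 with edgeR, -0.78 without the second FL library and -0.83 without the second C1C3b library, not called in any of these. C1+14 had 8 factors higher than FL with quantile normalization, 9 with equal totals and 3 without the first FL library. C1C3c had 7 higher with equal totals, its Esrrb call was lost without the first C1C3c library (0.86), and without that library Klf2 (-1.56) and Prdm14 (-1.32) were called lower than FL. C1C3a had 2 higher when only its libraries and those of FL were fitted.

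Among libraries of kind A, C1+14 had the fewest genes called lower than mCherry and served as the reference. FL lay below C1+14 for Tbx3 by 2.50 (adjusted p = 2.51e-05), Esrrb by 1.93 (adjusted p = 2.51e-05), Klf4 by 1.84 (adjusted p = 0.000714), Tfcp2l1 by 1.35 (adjusted p = 0.000183) and Klf5 by 1.10 (adjusted p = 0.000198). Nanog (-0.83, adjusted p = 0.0104), Klf2 (-0.92, adjusted p = 0.0645), Zfp42 (-0.68, adjusted p = 0.0145) and Prdm14 (-0.28, adjusted p = 0.534) were not called in that comparison by limma with the deposited scaling. Written as C1+14 over FL, Nanog was 1.80, Klf2 1.11 and Zfp42 1.27 with quantile normalization, all called, and edgeR called Nanog and Klf2. With equal totals Nanog was 2.08, Klf2 2.17, Zfp42 1.93 and Prdm14 1.53, all called. Without the first FL library the differences of FL from C1+14 were 0.92 for Tfcp2l1 and 0.78 for Klf5 in size and not called. Within kind B, C3+14 lay below mCherry for Klf2, Prdm14, Esrrb, Tfcp2l1, Tbx3, Zfp42 and Nanog. Prdm14 differed by -2.69 in the comparison within kind B and by -0.28, with a 95% interval from -1.08 to 0.51, in that within kind A, and the latter difference depends on the scaling, being 1.53 in size and called with equal totals.

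**Figure D3:**
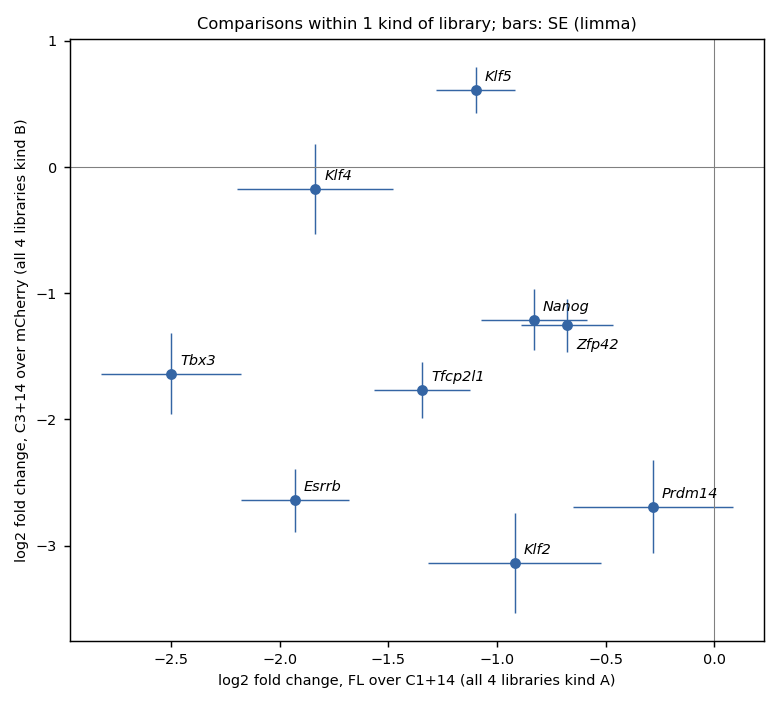
Log2 fold change of each factor in FL over C1+14 (horizontal, all 4 libraries kind A) against C3+14 over mCherry (vertical, all 4 libraries kind B), with bars for the SE from limma. Tbx3 lies farthest left at -2.50 and Klf2 lowest at -3.14, Prdm14 is near 0 horizontally at -0.28, and Klf4 and Klf5 are low only on the horizontal axis.

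The 3 C1C3 constructs were all kind A, so they can be compared with each other and with C1+14 directly. Against C1C3a, C1C3b had 6 factors lower (17.3% of all genes were), namely Nanog by 2.93 (adjusted p = 6.94e-07), Klf2 by 3.36 (adjusted p = 1.62e-05), Tbx3 by 2.79 (adjusted p = 1.29e-05), Prdm14 by 2.59 (adjusted p = 6.95e-05), Esrrb by 1.75 (adjusted p = 7.1e-05) and Zfp42 by 1.30 (adjusted p = 0.000203). These 6 calls depend in part on the scaling: Zfp42 was at -0.88 with quantile normalization and -0.48 with equal totals, and Esrrb at -0.93 with equal totals, none of them called. Tfcp2l1 was at 0.45 (adjusted p = 0.102) and not called with the deposited scaling, but was called higher with quantile normalization (1.00) and with equal totals (1.27). Klf4 and Klf5 differed by -0.40 and 0.10. Against C1+14, C1C3b had 6 lower (11.0% of all genes), with Klf2 10.7-fold and Nanog 8.62-fold below. C1C3a had 2 lower than C1+14, near the share of all genes (17.3%), Tfcp2l1 by 1.87 (adjusted p = 1.02e-05) and Esrrb by 1.20 (adjusted p = 0.0011), and 5 with equal totals. C1C3c had 1, Klf2 by 1.60 (adjusted p = 0.0187; 2.46% of all genes), which was lost when only these 2 groups were fitted and when the second C1C3c library or either C1+14 library was left out. Without the first C1C3c library 4 factors were lower.

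The deletion table sets the segments C12345 and 14 against each other, each present or absent. Removing 14 alone (C12345delt14) left every factor's mean above FL, but by limma 0 of the 9 were called higher (0.338% of all 19833 genes tested were), while 7 had an unadjusted p under 0.05, edgeR called 1 and DESeq2 3. Removing C12345, with or without 14, gave 8 factors called higher than FL in both constructs (18.4% of all genes for deltC12345+14 and 18.8% for deltC12345delt14). Klf5 was the factor not called, and between the 2 constructs without C12345 no factor was called. The 2-cell-like markers summed to 1666710 and 907010 normalised reads with FL, 546813 and 346034 with C12345delt14, 0 and 0 with deltC12345+14, and 3.28 and 0 with deltC12345delt14, and fibroblast markers to 221 and 183 with FL, 214 and 281 with C12345delt14, 576 and 612 with deltC12345+14, and 496 and 741 with deltC12345delt14. The part of either in the levels of the factors was not tested.

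**Figure D4:**
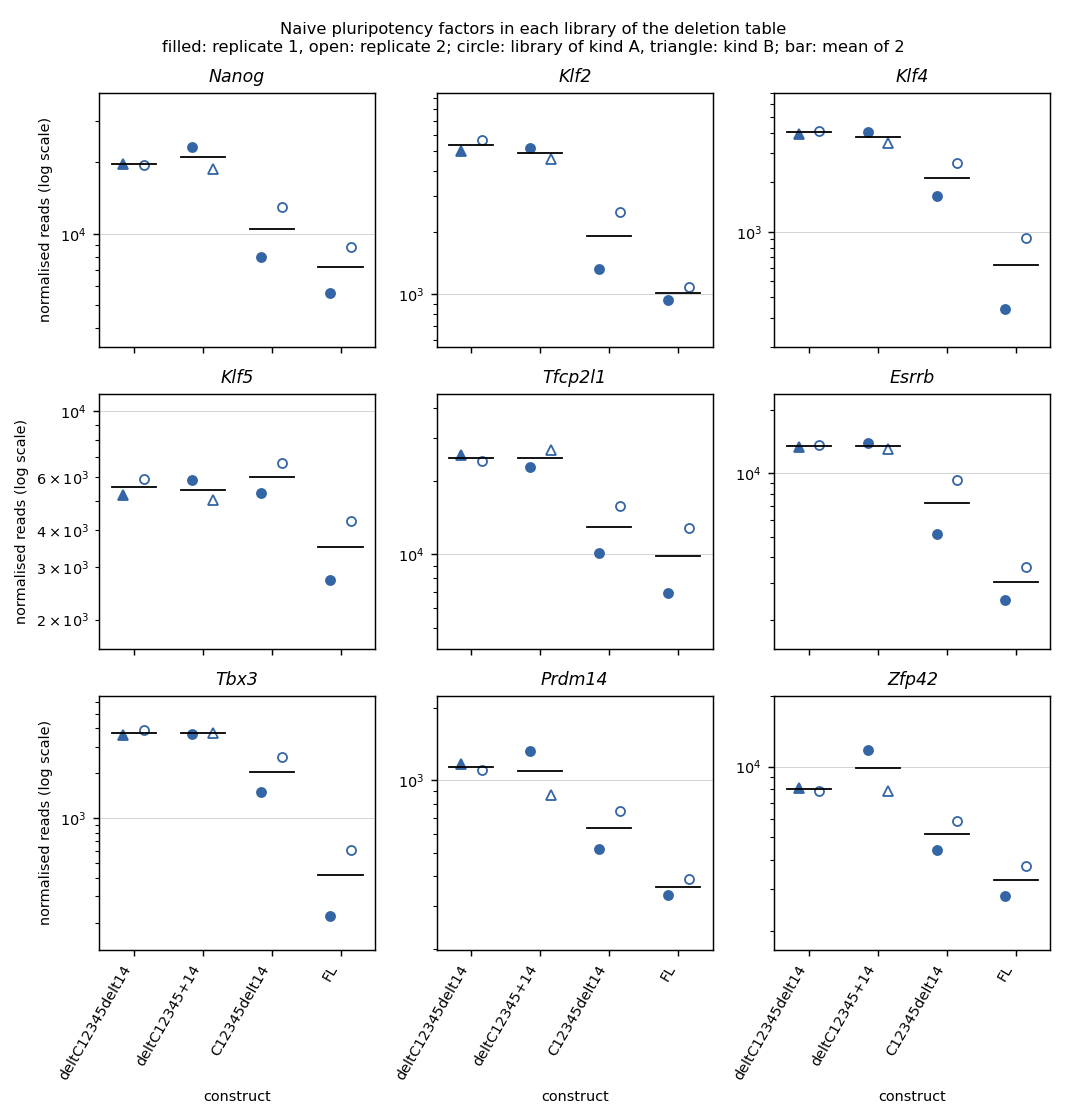
Normalised reads (log scale) of the 9 factors in each of the 8 libraries of the deletion table, by construct, with symbols as in the plot of the chimera table and bars for the mean of 2. FL is lowest for all 9 factors, and C12345delt14 lies between FL and the constructs without C12345 for 8 of them, Klf5 being the exception.

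Tbx3 had 223 and 613 normalised reads with FL, 1488 and 2564 with C12345delt14, 3646 and 3749 with deltC12345+14, and 3589 and 3895 with deltC12345delt14. Klf4 had 339 and 920 with FL, 1643 and 2626 with C12345delt14, 4060 and 3473 with deltC12345+14, and 3963 and 4125 with deltC12345delt14. For both genes the C12345delt14 libraries lay between the other groups without overlap. Tbx3 with deltC12345delt14 was 8.95-fold above FL (log2 3.33 ± 0.43 SE, adjusted p = 0.000697) and Klf4 6.42-fold (log2 2.85 ± 0.42 SE, adjusted p = 0.00118). With C12345delt14 the differences from FL were 2.40 for Tbx3 (adjusted p = 0.0535) and 1.89 for Klf4 (adjusted p = 0.0683). Tbx3 passed under 9 of the alternatives, edgeR (adjusted p = 0.035) among them, and DESeq2 called Tbx3, Klf4 and Esrrb.

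Esrrb had 2499 and 3591 normalised reads with FL, 5158 and 9322 with C12345delt14, 13963 and 13061 with deltC12345+14, and 13316 and 13661 with deltC12345delt14. Klf2 had 939 and 1081 with FL, 1320 and 2510 with C12345delt14, 5174 and 4576 with deltC12345+14, and 4974 and 5641 with deltC12345delt14. Both were separated in all 4 groups except for the pair without C12345, whose libraries overlapped. Klf2 rose over FL by 2.39 with deltC12345delt14 (adjusted p = 0.000371) and Esrrb by 2.17 (adjusted p = 0.000629). Klf2 was the 1 factor called lower in C12345delt14 than in deltC12345delt14 (-1.54, adjusted p = 0.00559), a count near the share of all genes, 9.40%. Against deltC12345+14 there were 2, Klf2 (-1.42, adjusted p = 0.00891) and Nanog (-1.04, adjusted p = 0.0274; 8.27% of all genes). Without the first C12345delt14 library Klf2 was at -0.95 and Nanog at -0.68 against deltC12345+14, neither called, and the Nanog call was also lost without either deltC12345+14 library (-0.89 and -1.19) and with no filter (adjusted p = 0.0512). Both counts depend on the scaling, since each became 8 with equal totals.

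Nanog had 5645 and 8821 normalised reads with FL, 7954 and 13014 with C12345delt14, 23186 and 18841 with deltC12345+14, and 19766 and 19473 with deltC12345delt14. Tfcp2l1 had 6973 and 12801 with FL, 10117 and 15861 with C12345delt14, 22815 and 26825 with deltC12345+14, and 25524 and 24225 with deltC12345delt14. For these 2 genes the FL and C12345delt14 libraries overlapped. Nanog rose over FL by 1.57 with deltC12345+14 (adjusted p = 0.00265) and 1.48 with deltC12345delt14 (adjusted p = 0.00329), and Tfcp2l1 by 1.39 (adjusted p = 0.00662) and 1.40 (adjusted p = 0.00629), the latter gene falling under the size for a call without the first FL library, at 0.95 and 0.96.

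Prdm14 had 335 and 389 normalised reads with FL, 518 and 747 with C12345delt14, 1323 and 871 with deltC12345+14, and 1174 and 1105 with deltC12345delt14. Zfp42 had 2814 and 3758 with FL, 4432 and 5894 with C12345delt14, 11808 and 7863 with deltC12345+14, and 8140 and 7883 with deltC12345delt14. The deltC12345+14 libraries of both genes were apart, with the kind A library higher by 0.60 for Prdm14 and 0.59 for Zfp42 on the log2 scale. With deltC12345delt14 the difference of kind A from kind B went the other way, at -0.09 for Prdm14 and -0.05 for Zfp42. Prdm14 rose over FL by 1.57 (adjusted p = 0.00173) and 1.66 (adjusted p = 0.00131) in the 2 constructs without C12345, and Zfp42 by 1.57 (adjusted p = 0.00136) and 1.30 (adjusted p = 0.00283).

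Klf5 had 2716 and 4269 normalised reads with FL, 5337 and 6713 with C12345delt14, 5878 and 5019 with deltC12345+14, and 5225 and 5906 with deltC12345delt14. The 3 deletion constructs overlapped and all lay above FL, by 0.81 (adjusted p = 0.0925), 0.67 (adjusted p = 0.0369) and 0.71 (adjusted p = 0.0306), which did not reach the size for a call. With quantile normalization the differences of the 2 constructs without C12345 were 1.26 and 1.25, and with equal totals 1.89 and 1.88, and were called.

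Whether the effect of 14 depends on C12345 was tested as an interaction. It was below 0 for all 9 factors, from -2.38 for Tbx3 (adjusted p = 0.312) and -1.79 for Klf4 (adjusted p = 0.313) to -0.42 for Tfcp2l1 (adjusted p = 0.677). By limma 0 were called, as were 0 of all 19833 genes. At an unadjusted p under 0.05 there were 5, edgeR called 0 and DESeq2 called 1, Tbx3 at -2.26 (adjusted p = 0.0041). The difference between deltC12345+14 and deltC12345delt14 was between -0.12 and 0.27 for all 9, with 0 called by limma, edgeR or DESeq2 and 0 at an unadjusted p under 0.05. For Tbx3 its 95% interval ran from -1.02 to 0.99.

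Of the core factors, Pou5f1 (OCT4) had 19308 and 20815 normalised reads with FL and 12414 and 12697 with mCherry, a difference of 0.68 (adjusted p = 0.00175) that did not reach the size for a call. In C1C3b, where Nanog was at 7.35% of mCherry, Pou5f1 had 14155 and 12594 and overlapped mCherry. Sox2, its partner, had 463 and 1039 with FL, 744 and 654 with C1C3b and 4962 and 4866 with mCherry, and fell by 2.82 with FL (adjusted p = 1.62e-06) and by 2.81 with C1C3b (adjusted p = 2.09e-06). Of the 5 core factors 2 fell with FL, Sox2 and Lin28a, and 0 rose, against 19.6% and 24.5% of all genes.

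Genes of the signalling routes that feed the naive factors were read from lists written from general knowledge, with earlier results of these data known. Of 9 LIF and STAT3 genes, 6 fell with FL (Stat3, Socs3, Il6st, Lifr, Pim3 and Pim1) and 0 rose, against 19.6% and 24.5% of all genes, with a median of -1.80 against 0.09 over all genes. Socs3, the feedback inhibitor that STAT3 induces, went from 1886 and 1860 normalised reads with mCherry to 41.3 and 255 with FL (log2 -4.17, adjusted p = 2.15e-05), and Pim1 from 1326 and 1348 to 69.2 and 173 (log2 -3.60, adjusted p = 2.14e-07). With C3+14, within kind B, 5 of the 9 fell and 2 rose (Jak1 and Jak2), against 17.7% and 29.6% of all genes, with Socs3 at 126 and 97.2. With C1+14 limma called 0 of the 9, as did edgeR and DESeq2, and 4 had an unadjusted p under 0.05. With deltC12345delt14 6 rose over FL and 0 fell (18.8% of all genes rose and 20.3% fell), Socs3 to 3055 and 4075 from 50.7 and 319.

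Of 12 other genes associated with the naive state, 6 fell and 1 rose with FL, against 19.6% and 24.5% of all genes, with a median of -0.81 against 0.09 over all genes. Fgf4, a growth factor that OCT4 and SOX2 drive together, had 3858 and 3911 normalised reads with mCherry and 45.7 and 256 with FL (log2 -5.15, adjusted p = 6.63e-06), and Gbx2, a STAT3 target, had 360 and 308 against 36.8 and 20.2 (log2 -3.56, adjusted p = 3.74e-07). Nr5a2, a nuclear receptor that binds with ESRRB-like specificity, had 1698 and 1701 against 236 and 237 (log2 -2.84, adjusted p = 5.06e-07). With C3+14 4 of these genes fell and 1 rose, against 17.7% and 29.6% of all genes. The gene that rose was Fbxo15, from 5996 and 5638 to 91117 and 91195 normalised reads (log2 3.97, adjusted p = 2.19e-11). With C1+14 3 fell and 0 rose, against 5.95% and 12.4% of all genes, among them Nr5a2 (log2 -2.04, adjusted p = 6.86e-05).

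Of 9 genes of the WNT and beta-catenin axis, 2 fell with FL and 0 rose, near the 19.6% of all genes that fell (24.5% rose), so the count is no result about the axis. The 2 were Sp5, which went from 173 and 196 to 28.0 and 9.52 (log2 -3.40, adjusted p = 0.000256), and Tcf7l2. Of 8 ERK response genes, 4 fell and 2 rose with FL, against 19.6% and 24.5% of all genes, so the count that rose is near the background. Dusp6 went from 195 and 190 with mCherry to 8.84 and 26.2 (log2 -3.56, adjusted p = 5.34e-06), whereas Egr1 went from 5.94 and 0 to 54.5 and 72.6 (log2 4.60, adjusted p = 6.77e-05). Nodal, a growth factor of the epiblast, fell with FL from 1483 and 1462 normalised reads to 42.7 and 83.3 (log2 -4.60, adjusted p = 7.58e-09).

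As a description over the 14 libraries of the chimera table, the gene most like each factor among 13503 compared was Gtsf1l for Nanog (Pearson's r = 0.974), Cd3eap for Klf2 (0.971), Slc25a25 for Klf4 (0.959), Lhx6 for Klf5 (0.965) and St6galnac6 for Tfcp2l1 (0.975). It was Cntn2 for Esrrb (0.974), followed by Zscan10 (0.969), Mrm2 for Tbx3 (0.939), Zfp57 for Prdm14 (0.970) and the pseudogene Zfp42-ps1 for Zfp42 (0.989). The libraries share constructs and kinds, so these coefficients carry no test.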

How the data were processed

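Poly(A) RNA of 20 libraries in 10 groups of 2 was analysed. The deposited tables hold a signal: per the labels and headers, the authors normalised the reads of each gene, with a single factor for all genes of a library. Every one of 574693 values above 0 was a whole multiple of its column's step (100%, tolerance 0.01), so whole reads were recovered. Trim Galore 0.5.0, FastQC, DESeq2 and the mm10 build are named in the submitters' processing notes; the aligner and counter are not given in the sources used here. Totals were 21059953 to 40448890 reads, and shares of reads cover counting error only. Symbols came from GENCODE M21 for 55227 of 55487 identifiers.

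The test was limma 3.58.1 (R 4.3.3), lmFit and eBayes with a trend, on log2(value + 1), which understates folds of low genes. Genes reaching 10 in 2 or more libraries entered (21584 and 19833), all groups of a table in 1 fit, with Benjamini-Hochberg adjustment over all genes per comparison. Genes were called at adjusted p under 0.05 and a log2 fold of at least 1. The script was tested on simulated data. Groups were compared only within a table. With 2 replicates a group, intervals are 95% intervals from the fit.

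Alternatives were pseudocounts of 8 and 0.1, 2 other filters, quantile normalization, equal library totals, edgeR 4.0.16 and DESeq2 1.42.0 on recovered reads, 2-group fits, a replicate block, each replicate left out, and no genes sharing sequence. Library kind as a covariate was added after seeing the data. The members and lists were chosen with earlier results of these data known. Named are all 9 factors, Pou5f1 and Sox2, up to 3 called genes per list and comparison with the largest fold and a mean of at least 50, and the 2 genes most like each factor, of which a selection is printed.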

Additional observations from a re-analysis of the deposited data

How the results depend on the processing

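Counts of factors called that moved by over 1.5 times were these, with further lost calls named. Equal library totals gave 7 for C1C3a against mCherry, 7 for C1C3c against FL, 9 for C1+14 against FL, 5 for C1C3a against C1+14, and 8 for C12345delt14 against either construct without C12345. Equal totals also took C1C3c against mCherry from 6 to 4, losing Esrrb and Zfp42, and C1C3b against C1C3a from 6 to 5, losing Esrrb and Zfp42 and gaining Tfcp2l1. Quantile normalization gave 8 for C1+14 against FL, 1 for C12345delt14 against FL, 6 against deltC12345delt14 and 5 against deltC12345+14 (1 without a filter). Fitting only the 2 groups lost Klf2, Nanog, Esrrb and Zfp42 for C1C3c against mCherry, leaving 2. It lost Klf4 and Klf5 for C1C3a against FL, leaving 2, and Klf4 for C1C3c and C1+14 against FL. It gave 0 for C1C3c against C1+14 and 3 for C12345delt14 against FL. The last comparison gave 3 with a pseudocount of 8, 1 with a filter of 50, 1 with edgeR, 3 with DESeq2, 3 without genes sharing sequence and 2 with library kind as a covariate, chosen after seeing the data, which gave 3 for C12345delt14 against deltC12345delt14. DESeq2 gave 1 for the interaction. The causes were not tested.

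With 1 replicate left out, counts ranged, against mCherry, over 7 to 9 for FL, 7 to 7 for C3+14, 4 to 4 for C1C3a, 7 to 7 for C1C3b, 2 to 7 for C1C3c and 3 to 3 for C1+14. Against FL they ranged over 3 to 4 for C3+14, 4 to 4 for C1C3a, 5 to 6 for C1C3b, 3 to 6 for C1C3c, 3 to 6 for C1+14, 0 to 3 for C12345delt14, 7 to 8 for deltC12345+14 and 7 to 9 for deltC12345delt14. Against C1+14 they were 2 to 3 for C1C3a, 6 to 6 for C1C3b and 0 to 4 for C1C3c, and C1C3b against C1C3a stayed at 6. C12345delt14 had 0 to 6 against deltC12345+14 and 1 to 5 against deltC12345delt14.

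Of 2895 fold changes of single factors, 2692 kept direction and side of the threshold, 106 gained a call, 43 lost one and 54 changed sign, 0 of the last called before. With equal totals these were Klf5 at -0.17 (C3+14 against mCherry) and -0.585 (C1C3a against mCherry). Against FL they were Esrrb 0.105 (C3+14), Tfcp2l1 0.863 and Zfp42 0.836 (C1C3b), and Prdm14 0.667 and Klf2 0.54 (C1C3c). C1C3a against C1+14 gave Prdm14 -1.12, which was called in the new direction (limma, adjusted p = 0.0181). It also gave Klf4 -0.19, Tbx3 -0.17, Zfp42 -0.61 and Klf5 -0.81. C1C3c against C1+14 gave Klf4 -0.016, and C1C3b against C1C3a gave Klf4 0.425. Klf5 in C12345delt14 was -0.54 against deltC12345delt14 and -0.55 against deltC12345+14. With quantile normalization Klf5 was -0.27 (C1C3a against mCherry), Tfcp2l1 0.58 and Zfp42 0.16 (C1C3b against FL), Prdm14 -0.12, Zfp42 -0.24 and Klf5 -0.50 (C1C3a against C1+14), Klf4 -0.051 and Tbx3 -0.010 (C1C3c against C1+14), and Klf5 -0.30 and -0.31 in C12345delt14 against the constructs without C12345. With edgeR Prdm14 was -0.19 in C1C3a against C1+14. With 1 replicate left out, the factors whose sign changed had these ranges: C1C3a against mCherry gave Klf4 -0.0593 to 0.00578. C1+14 against mCherry gave Tfcp2l1 -0.00396 to 0.0498 and Klf5 -0.0301 to 0.0397. C3+14 against FL gave Nanog -0.022 to 0.60 and Esrrb -0.39 to 0.11. C1C3b against FL gave Tbx3 -0.051 to 1.38, Tfcp2l1 -0.50 to 0.35 and Zfp42 -0.30 to 0.096. C1C3c against FL gave Nanog -0.31 to 0.58, Prdm14 -1.32 to 0.21 and Klf2 -1.56 to 0.19. C1C3a against C1+14 gave Klf2 -0.23 to 0.025 and Prdm14 -0.21 to 0.24. C1C3c against C1+14 gave Klf4 -0.50 to 0.52, Tbx3 -0.21 to 0.31 and Zfp42 -0.15 to 0.66. C1C3b against C1C3a gave Klf5 -0.11 to 0.31. C12345delt14 against FL gave Tfcp2l1 -0.015 to 0.86. C12345delt14 against deltC12345delt14 gave Klf5 -0.058 to 0.27. C12345delt14 against deltC12345+14 gave Klf5 -0.025 to 0.31. The interaction gave Tfcp2l1 -0.85 to 0.022.

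The replicate block changed no count of factors called, FL against mCherry staying at 9. Same-numbered libraries correlated above 0.1 in 0 of 21 pairs of groups in the chimera table and 1 of 6 in the deletion table, so the numbers do not pair the samples.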
